A study of Mus musculus with 8 samples.

Results

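The collagen genes are described here by their place in the nucleus in 3T3-L1 cells. Members were taken by symbol, as protein-coding genes of the mm9 annotation named Col, a number, a and a number, and 43 of 22367 protein-coding genes on 21 chromosomes met the rule. Collagens that the annotation lists under another symbol were not taken. LaminB1-DamID had been carried out in 4 conditions, each with 1 LaminB1-Dam and 1 Dam library. 3T3-L1 is an established mouse fibroblast line that turns into fat-storing adipocytes in culture. The preadipocytes were untreated and undifferentiated (day 0). The other conditions were adipocytes at day 9 of differentiation, induced with insulin, dexamethasone, IBMX and rosiglitazone, and by their labels they carried either a control non-target shRNA, a Tmem120a shRNA or Tmem120a/b shRNA, the latter being called the double knockdown. No shRNA is given in the labels of the preadipocytes, so differentiation and the shRNA cannot be told apart in that comparison. All conditions were transduced with lentivirus encoding Dam or LaminB1-Dam, the adipocytes at a late stage of differentiation, and the shRNA lines were stable lines. Tmem120a and Tmem120b encode paralogous membrane proteins of the nuclear envelope.

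DamID labels DNA near a chosen protein through a fusion of it with the bacterial Dam methylase, which adds a methyl group to the adenine of GATC. Stretches where LaminB1-Dam exceeds free Dam are called lamina-associated domains (LADs) and are read as DNA at the nuclear periphery. Each condition had 1 list of LADs. The lists were cut to unlike degrees, with 7828 LAD borders in preadipocytes, 5084 in adipocytes, 11446 under Tmem120a knockdown and 13942 under double knockdown. Whether a short LAD or a gap at 1 gene below is more than this difference between lists was not tested. Regions deposited as differential between preadipocytes and adipocytes were of a pair of kinds, called released when they lay in preadipocyte LADs alone and recruited when they lay in adipocyte LADs alone. No list has a replicate, so no difference below can be set against a replicate spread and no test was run. The lists hold positions only, without depth or signal, so precision within a LAD is unknown and neither the knockdowns nor the cell type could be checked from them. A change of state is a change between lists, not a measured movement or a change in expression.

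Collagens are secreted or membrane-bound proteins built of 3 chains wound into a triple helix, and they make up much of the extracellular matrix. Fibrillar collagens form the cables of bone, skin, tendon and cartilage. Type IV chains form the sheet of basement membranes, which also surrounds each fat cell, and type VI chains form beaded filaments that are abundant in adipose tissue. FACIT collagens (fibril-associated with interrupted triple helices) sit on the surface of fibrils or at tissue borders, and transmembrane collagens span the plasma membrane. Many collagen genes are long and split into many exons, and several lie side by side.

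Of the 43 collagen genes, 27 (62.8%) had no part of the body in a LAD of any list, nearly the share of all protein-coding genes, 63.7%. The other 16 (37.2%) met a LAD in at least 1 list, against 36.3% of all genes. A body in a LAD of every list was found for 7 members, namely Col11a1, Col4a3, Col4a4, Col9a1, Col19a1, Col22a1 and Col25a1, where 19.3% of all genes had one. With LADs of at least 100 kb this left 4 (Col11a1, Col19a1, Col22a1 and Col25a1), and with 50% of the body required it left Col19a1 and Col25a1. The share of all genes in every list was not counted at either setting, so whether collagens fell more was not tested. The remaining members, Col6a4, Col6a5, Col6a6, Col13a1, Col23a1, Col9a2, Col28a1, Col4a5 and Col4a6, met a LAD in some lists and not in others. Overlap was thus mixed within most classes. All members of 3 small classes stayed out of LADs: the short-chain collagens Col8a1, Col8a2 and Col10a1, the multiplexins Col15a1 and Col18a1, and the anchoring fibril collagen Col7a1.

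In preadipocytes 7 collagen bodies (16.3%) met a LAD, against 26.2% of all genes. In adipocytes 10 did (23.3%), equal to the 23.3% of all genes. The Tmem120a knockdown list met 12 (27.9%), against 27.5%, and the double knockdown list met 14 (32.6%), against 29.5%. Collagens therefore went from a share below that of all genes in preadipocytes to shares near it in the lists of adipocytes. No error was available for either. The 3 bodies added between preadipocytes and adipocytes were Col6a4, Col6a5 and Col6a6. These lie in a row on chromosome 9 and are not independent cases. Between the same lists the share of all genes fell from 26.2% to 23.3%, which also narrowed the gap. The order of collagen counts rests on short LADs. With LADs of at least 100 kb alone the counts were 5, 5, 5 and 4. Those are 11.6%, 11.6%, 11.6% and 9.30% of collagens, below the 21.8%, 21.1%, 20.1% and 20.6% of all genes in every list, so the nearness to all genes in the adipocyte lists also ended. Start sites gave another picture, with 7 of 43 in a LAD (16.3%) in preadipocytes, in adipocytes and under Tmem120a knockdown, and 5 (11.6%) under double knockdown. The corresponding shares of all gene starts were 23.3%, 21.2%, 22.6% and 23.8%. With LADs of at least 100 kb the collagen starts numbered 4, 5, 2 and 2. Starts of all genes were not counted at this setting, so whether the fall is particular to collagens was not tested. Of the 9 members met in some lists only, the start itself lay in a LAD for Col6a4 and Col6a6, under Tmem120a knockdown, and for none of the other members. Counting any coding transcript start added Col13a1 and Col4a5 in that list, 9 in all.

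**Figure D1:**
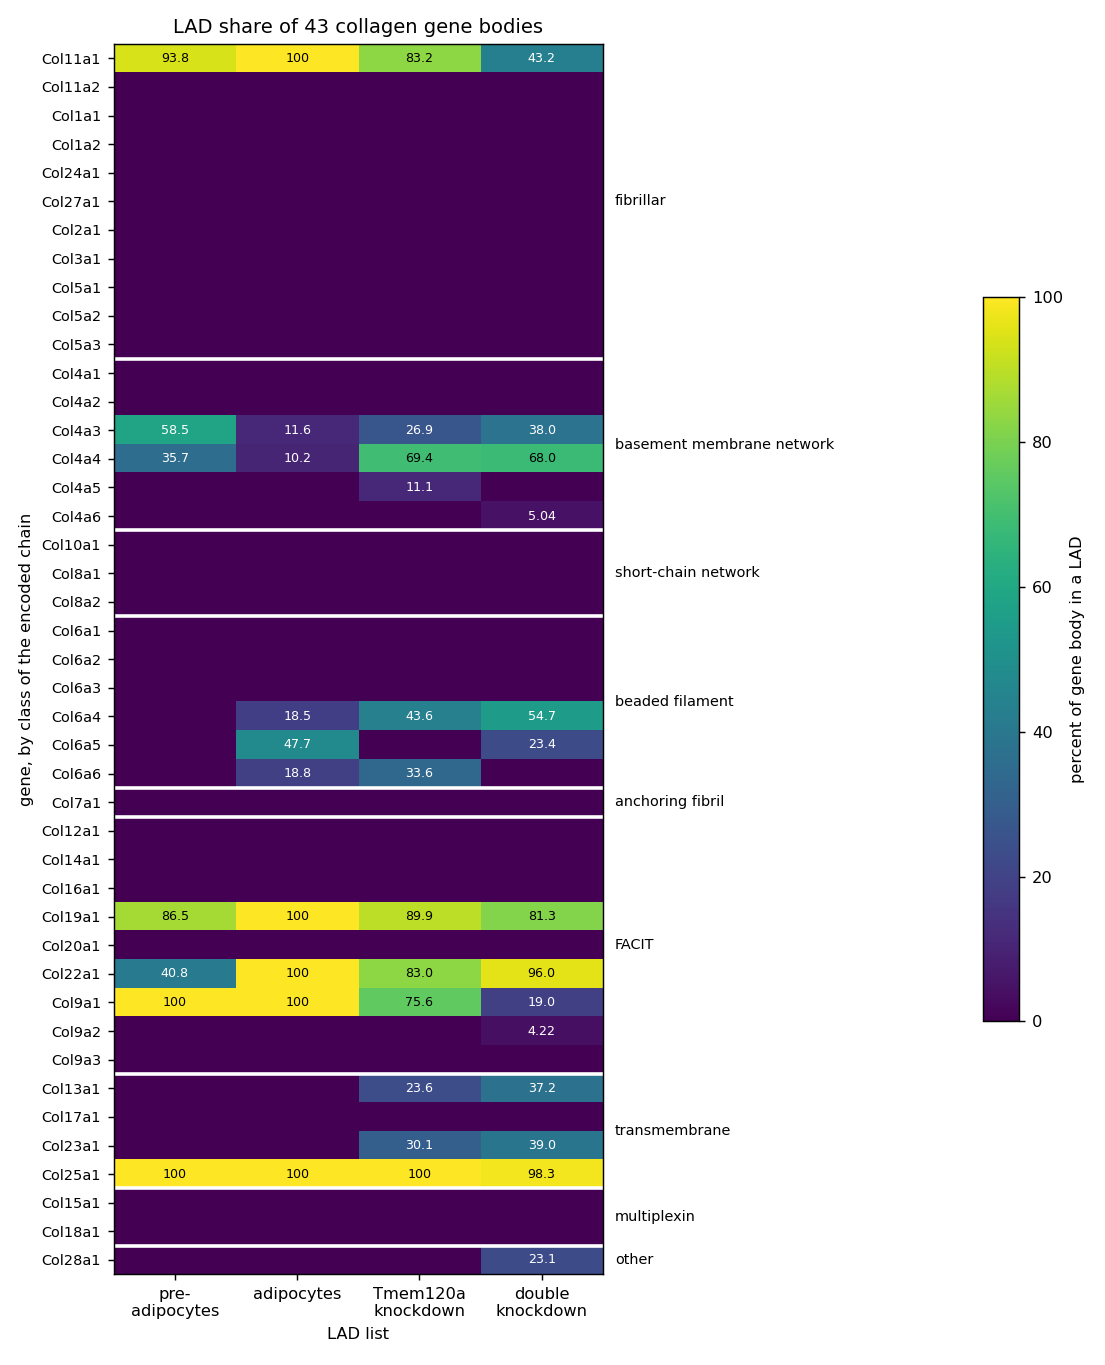
Share of each of the 43 collagen gene bodies lying in a LAD (colour, percent of bp; cells with no figure are 0), by LAD list in columns and by class of the encoded chain in rows. The 7 genes met in every list include Col25a1 at 98.3 to 100%, while the 3 neighbouring genes Col6a4, Col6a5 and Col6a6 are at 0 in preadipocytes and at 18.5 to 47.7% in adipocytes.

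Collagen genes are long, and a long body has more chances to touch a LAD. The median collagen body was 114 kb, with a range of 7.11 to 419 kb, against 15.4 kb for all genes. Bodies of at least 100 kb made up 58.1% of collagens and 10.7% of all genes. Members in a LAD of any list had a median of 166 kb, and members in none 45.8 kb. Among the 25 long collagens, 6 met a LAD in preadipocytes (24.0%), 9 in adipocytes (36.0%), 11 under Tmem120a knockdown (44.0%) and 12 under double knockdown (48.0%). Long genes as a whole stood at 41.9%, 36.2%, 48.9% and 52.6%. The share of long collagens was lower than that of long genes in preadipocytes and close to it in adipocytes. The 3 long collagens added in adipocytes were again the neighbours Col6a4, Col6a5 and Col6a6, and the share of long genes fell. Of the 9 collagens under 30 kb, none met a LAD except Col9a2 in the double knockdown, while 24.0 to 27.6% of all genes of that length did. Among the 9 of 30 to 100 kb, Col9a1 alone met a LAD, in all 4 lists (11.1%), where all genes of that length stood at 18.9%, 14.9%, 21.8% and 24.3%.

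**Figure D2:**
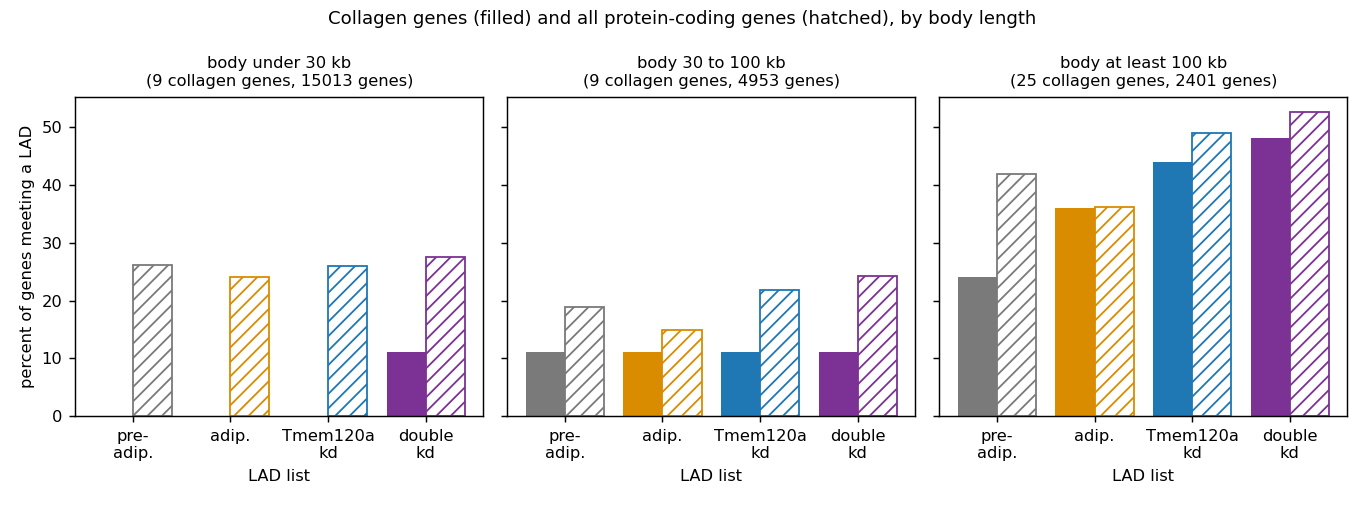
Percent of genes whose body meets a LAD in each list, for collagen genes (filled bars) and all protein-coding genes (hatched bars), in 3 classes of body length. Long collagens stand at 24.0% in preadipocytes and at 48.0% in the double knockdown. Long genes as a whole stand at 41.9% and 52.6% in the same lists. LADs of any length are counted.

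By length, the summed collagen bodies came to 5168 kb. Of this, 1179 kb (22.8%) lay in LADs in preadipocytes, 1374 kb (26.6%) in adipocytes, 1495 kb (28.9%) under Tmem120a knockdown and 1458 kb (28.2%) under double knockdown. Stretches of collagen genes in LADs of adipocytes and not preadipocytes summed to 293 kb, and those of preadipocytes and not adipocytes to 98.1 kb. Against adipocytes, the Tmem120a knockdown held 296 kb more in places and lacked 175 kb in others, and the double knockdown held 394 kb and lacked 310 kb. Both knockdowns were read against the same adipocyte list, so their values are not independent of each other. No such sums were made for all gene bodies, so whether these differences are particular to collagens was not tested.

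Of the 11 fibrillar collagens, 10 lay outside LADs in all lists, as did 63.7% of all genes. By length the share of all genes was 66.5% under 30 kb, 67.5% at 30 to 100 kb and 38.8% at 100 kb or more. Among the 10, only Col5a1, Col5a2, Col24a1 and Col27a1 had bodies of at least 100 kb. Col1a1 and Col1a2, which encode the type I chains of skin, bone and tendon, Col3a1, the type III chain of elastic tissues, Col2a1, the main chain of cartilage, the type V genes Col5a1, Col5a2 and Col5a3, and Col11a2, Col24a1 and Col27a1 were at 0% of the body in all 4 lists. The start of Col1a1 was 1088 kb from the nearest LAD in preadipocytes and 1094 kb in adipocytes. Col3a1 was closer, at 59.5 and 43.8 kb. Both genes were thus outside LADs at each stage, at distances that differed widely.

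The exception, Col11a1 (ENSMUSG00000027966.10, chr3:113733458-113923636, plus strand), encodes a chain of the minor fibrillar collagen of cartilage. The share of its body in a LAD was 93.8% in preadipocytes, 100% in adipocytes, 83.2% under Tmem120a knockdown and 43.2% under double knockdown. In preadipocytes its start lay in a 60.8 kb LAD, only 7.03 kb from the border, and a 987 kb LAD covered the rest. In adipocytes a LAD of 1957 kb held the whole gene, with the start 388 kb from the nearest border. The start was outside LADs in both knockdowns, 31.9 kb away from the nearest under Tmem120a knockdown and 99.2 kb away under double knockdown. The gap between the preadipocyte LADs, chr3:113740484-113752312, 11.8 kb, was deposited as a recruited region, lay from 7.03 to 18.9 kb after the start, and was in no LAD of either knockdown. The retained part was the 3′ part of the gene in both knockdowns. The borders of that region, both in introns, are shown because LAD edges are set by the fragments that the assay can see, and each edge falls on the sequence GATC, in capitals here on the plus strand of mm9.
Col11a1 lower border, chr3:113740465-113740500: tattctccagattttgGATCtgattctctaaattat
Col11a1 upper border, chr3:113752294-113752329: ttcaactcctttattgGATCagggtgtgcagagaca

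Among the 9 FACIT genes, Col12a1, Col14a1, Col16a1, Col20a1 and Col9a3 were in no LAD, and Col9a1, Col19a1 and Col22a1 were in LADs of every list. Col22a1 (ENSMUSG00000079022.3, chr15:71626225-71864657, minus strand) encodes a collagen of tissue junctions such as that of muscle and tendon. Its body was covered to 40.8% in preadipocytes, 100% in adipocytes, 83.0% under Tmem120a knockdown and 96.0% under double knockdown, and its start was in a LAD throughout. In preadipocytes a 109 kb LAD held the start and the first 97.2 kb of the gene. In adipocytes a LAD of 1343 kb held the whole gene, and the start lay 545 kb from its nearest border. The recruited region chr15:71254174-71767474, 513 kb, covered 141 kb of Col22a1, 59.2% of the body. LADs of the Tmem120a knockdown held 79.3% of that region, and those of the double knockdown held 59.5%. The knockdown lists thus kept the adipocyte pattern over most of the gene, split by a gap after the first 123 kb. The edge inside the gene, where the preadipocyte LAD gave way, is in an intron.
Col22a1 border, chr15:71767456-71767491: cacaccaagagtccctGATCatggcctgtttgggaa

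Col9a1 and Col19a1 are neighbours on chromosome 1, with their 3′ ends facing each other 9.15 kb apart. Col9a1 (ENSMUSG00000026147.9, chr1:24184449-24259577, plus strand) encodes a type IX chain that coats the fibrils of cartilage. Its body was at 100% in preadipocytes and in adipocytes, at 75.6% under Tmem120a knockdown and at 19.0% under double knockdown. What was kept differed between the knockdowns, since the Tmem120a knockdown LAD began 18.3 kb after the start and ran through the 3′ end, whereas the double knockdown LAD, 46.1 kb long, ended 14.3 kb after the start. The start was accordingly out of LADs in the first and in a LAD in the second. Col19a1 (ENSMUSG00000026141.7, chr1:24268729-24594311, minus strand), a sparsely expressed collagen of basement membrane zones, was covered to 86.5%, 100%, 89.9% and 81.3% in the same order of lists. Its start was in a LAD in preadipocytes, adipocytes and the Tmem120a knockdown, and 8.20 kb outside the nearest LAD in the double knockdown. The adipocyte LAD of 523 kb held both genes whole. A gap of 44.0 kb between preadipocyte LADs within Col19a1, chr1:24361735-24405735, was a recruited region, and all of it (100%) lay in a LAD of each knockdown. Col9a2, also a type IX chain gene but on chromosome 4, met a LAD in the double knockdown alone, at 4.22% of its 15.9 kb body.

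The type IV genes come as head-to-head pairs. Col4a1 and Col4a2, the chains found in nearly all basement membranes, overlap by 22 bp at their starts and were in no LAD. Col4a4 (ENSMUSG00000067158.7, chr1:82447298-82583424, minus strand) and Col4a3 (ENSMUSG00000079465.2, chr1:82583496-82718634, plus strand), chains of the kidney filter membrane, have starts separated by 71 bp. Both starts lay in a LAD of every list, in a shared domain of 62.6 kb in preadipocytes, 29.6 kb in adipocytes, 48.9 kb under Tmem120a knockdown and 98.6 kb under double knockdown. Each of these domains is under 100 kb, so neither start was in a LAD of any list when only longer LADs were counted. The stretch between the genes is shown as the sequence that lay in that domain in every list, on the plus strand with CG in capitals. It holds 2 CG and is 69.0% G and C.
Col4a4 to Col4a3, chr1:82583425-82583495: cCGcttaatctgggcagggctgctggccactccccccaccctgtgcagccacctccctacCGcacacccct

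Away from the starts this pair differed most between lists within its class. The body share of Col4a4 was 35.7% in preadipocytes, 10.2% in adipocytes, 69.4% under Tmem120a knockdown and 68.0% under double knockdown. That of Col4a3 was 58.5%, 11.6%, 26.9% and 38.0%. Adipocytes were thus lowest for both genes, with the LAD limited to the shared start. Both knockdowns exceeded preadipocytes for Col4a4 and stayed below them for Col4a3. A single piece here was deposited as released, chr1:82673640-82696667, 23.0 kb in Col4a3, 17.0% of its body, which lay in no LAD of either knockdown. The other pieces in LADs of preadipocytes and not adipocytes were not among the released regions. Each was nevertheless longer than the shortest released region deposited, 8.04 kb. They measured 20.7 and 19.8 kb in Col4a3 and 22.4 and 12.3 kb in Col4a4. The 20.7 kb piece and the 22.4 kb piece were wholly within LADs of both knockdowns, the 12.3 kb piece to 7.91% under Tmem120a knockdown and 100% under double knockdown, and the 19.8 kb piece to 0 and 38.0%. The borders of the released region are both in introns of Col4a3.
Col4a3 lower border, chr1:82673621-82673656: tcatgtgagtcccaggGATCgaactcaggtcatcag
Col4a3 upper border, chr1:82696649-82696684: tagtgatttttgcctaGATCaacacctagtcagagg

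Col4a6 and Col4a5, on the X chromosome and 1.31 kb apart, encode chains of kidney, skin and smooth muscle basement membranes. Col4a5 met a LAD of 23.8 kb under Tmem120a knockdown alone (11.1% of the body), and Col4a6 a LAD of 15.6 kb in the double knockdown alone (5.04%). Both LADs lay far from the annotated gene starts, beginning 142 kb and 290 kb after them. Another coding start of Col4a5 nevertheless lay in a LAD under Tmem120a knockdown.

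The type VI genes divided by location. Col6a1, Col6a2 and Col6a3, which encode the chains of the common type VI filament, were in no LAD. The start of Col6a3 was 3231 kb from the nearest LAD in preadipocytes, the farthest of the collagens in no LAD, and 1698 kb in adipocytes. Col6a4, Col6a5 and Col6a6 are later-described chains that can take the place of the third chain, and they lie in a row on chromosome 9, on the minus strand, with 28.0 and 28.8 kb between adjacent bodies. None of them met a LAD in preadipocytes and all of them did in adipocytes. They were the only 3 members with a body in a LAD of adipocytes and not of preadipocytes, a change seen for 1.88% of all genes and for 2.71% of genes of at least 100 kb. As neighbours on 1 stretch of chromosome they are not independent cases. None of the 3 was called when LADs under 100 kb were left out or when 50% of the body was required.

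Col6a5 (ENSMUSG00000091345.1, chr9:105758400-105862974) was covered to 47.7% in adipocytes, 0% under Tmem120a knockdown and 23.4% under double knockdown. Col6a4 (ENSMUSG00000032572.5, chr9:105891785-105999114) was covered to 18.5%, 43.6% and 54.7%, and Col6a6 (ENSMUSG00000043719.7, chr9:105591747-105730415) to 18.8%, 33.6% and 0%. The knockdowns thus went different ways over 3 adjacent genes. Against adipocytes, Col6a5 was lower in both, Col6a4 higher in both, and Col6a6 higher under Tmem120a knockdown and lower under double knockdown. No start was in a LAD in adipocytes, although that of Col6a5 was 1.53 kb away from one. In the Tmem120a knockdown the starts of Col6a4 and Col6a6 lay in LADs, 7.19 and 13.7 kb inside the border, and in the double knockdown they were 4.89 and 74.7 kb outside.

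Of the adipocyte LADs here, the 49.9 kb one in Col6a5 and the 47.2 kb one that reaches 19.9 kb into Col6a4 were recruited regions, and the 26.0 kb one in Col6a6 was not among them. The Col6a5 region lay to 0% in a Tmem120a knockdown LAD and to 49.1% in a double knockdown LAD, the Col6a4 region to 61.0% and 38.6%, and the Col6a6 stretch to 100% and 0%. The Col6a5 region is shown by its borders, the upper in an exon 14.7 kb after the start and the lower in an intron.
Col6a5 lower border, chr9:105798409-105798444: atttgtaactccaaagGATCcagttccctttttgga
Col6a5 upper border, chr9:105848301-105848336: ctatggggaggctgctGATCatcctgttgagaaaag

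Of the 4 transmembrane collagens, Col17a1, a component of the hemidesmosomes of skin, was in no LAD. Col25a1 (ENSMUSG00000058897.8, chr3:129883809-130302795, plus strand), a collagen of neurons and the longest member at 419 kb, was covered to 100% in preadipocytes, adipocytes and the Tmem120a knockdown, and to 98.3% in the double knockdown. Col25a1 was in this sense the steadiest member inside LADs, its start lying 70.5 to 93.1 kb inside the border. Col13a1 (ENSMUSG00000058806.7, chr10:61300984-61441856, minus strand), which takes part in the neuromuscular junction, was at 0% in preadipocytes and adipocytes, 23.6% under Tmem120a knockdown and 37.2% under double knockdown. Its LAD was 33.2 kb long under Tmem120a knockdown, beginning 99.1 kb after the start, and 52.4 kb long in the double knockdown, beginning 50.9 kb after it, so the knockdown LADs overlapped only near their edges. An adipocyte LAD lay 4.37 kb from the start without reaching it. Col23a1 (ENSMUSG00000063564.7, chr11:51103422-51397420, plus strand) showed the same order, with 0%, 0%, 30.1% and 39.0%. An 88.5 kb LAD covered it from 88.7 to 177 kb after the start under Tmem120a knockdown, and LADs of 87.7 and 27.0 kb in the double knockdown. Around the Col23a1 start, 30.4% of the surrounding 1 Mb was in LADs in preadipocytes, 6.07% in adipocytes, 39.6% under Tmem120a knockdown and 36.1% under double knockdown. Col28a1, a collagen of peripheral nerve that fits none of these classes, met a LAD of 45.1 kb in the double knockdown alone (23.1% of the body).

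Each change of state was counted beside its background over all genes. No collagen body was in a LAD in preadipocytes and not in adipocytes, where 4.81% of all genes were. A released region was met by 1 member, Col4a3, against 5.76% of all genes, and a recruited region by 5, Col11a1, Col19a1, Col22a1, Col6a4 and Col6a5, against 3.08%. For long genes as a whole these shares were 15.8% and 12.3%, and among the 25 long collagens they were 1 and 5 members. The 5 recruited regions touched 4 separate loci, since Col6a4 and Col6a5 adjoin.

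Against adipocytes, 3 bodies were in a LAD under Tmem120a knockdown alone (Col13a1, Col23a1 and Col4a5; 6.13% of all genes) and 1 in adipocytes alone (Col6a5; 1.95%). For the double knockdown these were 5 (Col13a1, Col23a1, Col9a2, Col28a1 and Col4a6; 8.36%) and 1 (Col6a6; 2.10%). Col13a1 and Col23a1 were in both sets. None of these gains was present with LADs of at least 100 kb or with 50% of the body required, nor was the loss of Col6a6, and the loss of Col6a5 ended likewise. A LAD in at least 1 knockdown and in neither preadipocytes nor adipocytes was found at 6 members (14.0%), against 8.19% of all genes. Among genes of at least 100 kb this was 5 of 25 collagens and 16.6% of all genes. All 6 met it with the body and had the annotated gene start outside, although another coding start of Col13a1 and of Col4a5 lay in a LAD under Tmem120a knockdown.

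At start sites as called on the full lists, no collagen differed between preadipocytes and adipocytes in either direction. Of all starts, 3.94% were in a LAD in preadipocytes and not adipocytes, and 1.84% the reverse. In the Tmem120a knockdown, 2 starts were in a LAD and not in adipocytes (Col6a4 and Col6a6; 3.76% of all genes) and 2 the reverse (Col9a1 and Col11a1; 2.44%). In the double knockdown, none was in a LAD and not in adipocytes (5.28%), and 2 were the reverse (Col19a1 and Col11a1; 2.69%). Col11a1 was the 1 start in an adipocyte LAD that lay outside LADs in both knockdown lists, a joint call not counted over all genes. These calls varied with the setting. The shares of all starts above are for the full lists, so whether the changes at other settings are particular to collagens was not tested. Counting LADs of at least 100 kb alone, the Col11a1 start was in a LAD in adipocytes and not in preadipocytes. The starts of Col9a1, Col11a1 and Col19a1 were then lost in both knockdowns, and no start was gained. With gaps under 50 kb closed, the Col6a5 start was in a LAD in adipocytes alone, the starts of Col9a1 and Col19a1 were in a LAD of every list, and those lost in each knockdown were Col11a1 and Col6a5.

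**Figure D3:**
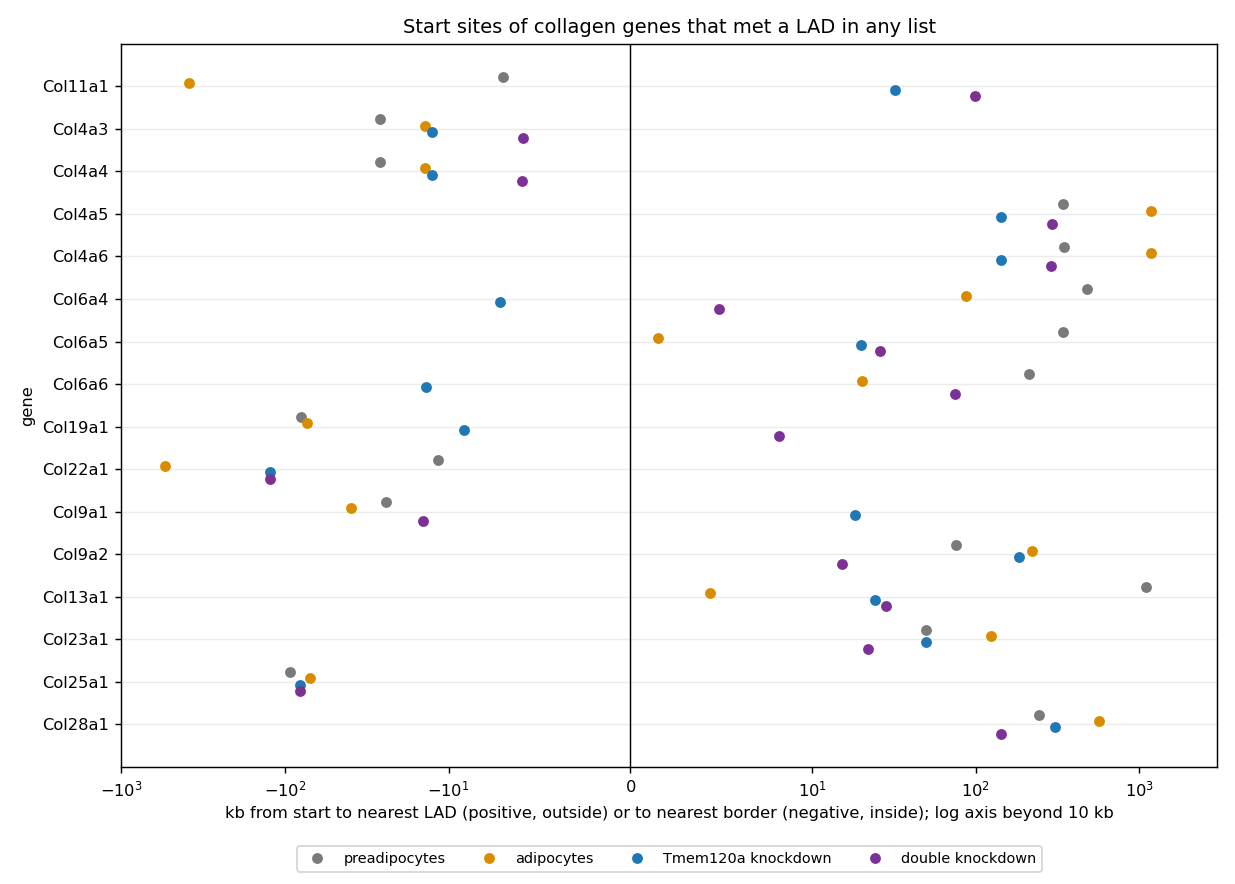
Distance in kb from the start of each of the 16 collagen genes that met a LAD to the nearest LAD (positive) or, where the start is inside, to the nearest border (negative), by list, on an axis that is logarithmic beyond 10 kb. Both starts of the Col4a4 and Col4a3 pair stay inside in every list, at 5.92 to 26.3 kb, while the Col11a1 start goes from 388 kb inside in adipocytes to 99.2 kb outside in the double knockdown.

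The starts of the 27 members in no LAD lay at a median of 455 kb from the nearest LAD in preadipocytes, 760 kb in adipocytes, 295 kb under Tmem120a knockdown and 337 kb under double knockdown. All genes in no LAD had medians of 468, 636, 314 and 269 kb, so the collagens were not uniformly farther or nearer. Within 100 kb of a LAD were 2 of the 27 (7.41%) in preadipocytes and in adipocytes, 3 (11.1%) under Tmem120a knockdown and 2 (7.41%) under double knockdown, against 16.4%, 10.8%, 20.6% and 23.9% of all genes in no LAD. The nearest were Col3a1 at 43.8 kb in adipocytes and Col24a1 at 19.0 kb under double knockdown. Over all collagen starts outside LADs the medians were 345, 516, 249 and 241 kb, against 374, 521, 240 and 209 kb for all genes.

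Some sequence features that the rule did not use were compared. Median GC content of the body was 47.4% for collagens and 45.6% for all genes. The 16 members in a LAD of any list had 42.3% and the 27 others 50.8%, and all genes split by the same criterion had 42.4% and 47.8%. The collagens in LADs thus had nearly the GC content of all genes in LADs. The GATC density, which sets the resolution of the assay, was 2.40 sites per kb of collagen body and 2.41 over all genes. In the 250 bases before the start, the median number of CG was 8 in collagens and in all genes. Collagens in a LAD of any list had 8 and those in none 9, where all genes had 3 and 12. The GC box letters GGGCGG, on either strand, were found in 51.2% of collagen windows and 39.6% of 22362 windows of all genes, and TATAAA, also on either strand, in 11.6% and 12.3%.

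The start of 5 members, Col9a1, Col19a1, Col11a1, Col6a4 and Col6a6, was in a LAD in some lists and not in others (11.6%), against 13.6% of all genes. Their upstream windows held 0, 7, 7, 6 and 10 CG in that order, and none held TATAAA. The windows with the fewest and the most CG are shown, read 5′ to 3′ along the gene with CG in capitals. That of Col9a1 holds no CG, and that of Col6a6 also holds GGGCGG or its reverse complement at 2 positions.
Col9a1, chr1:24184199-24184448, plus strand: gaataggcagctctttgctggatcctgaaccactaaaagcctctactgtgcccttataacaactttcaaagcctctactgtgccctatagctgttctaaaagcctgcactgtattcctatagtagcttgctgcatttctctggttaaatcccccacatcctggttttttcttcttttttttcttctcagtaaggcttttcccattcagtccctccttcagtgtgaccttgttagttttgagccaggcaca
Col6a6, chr9:105730416-105730665, minus strand: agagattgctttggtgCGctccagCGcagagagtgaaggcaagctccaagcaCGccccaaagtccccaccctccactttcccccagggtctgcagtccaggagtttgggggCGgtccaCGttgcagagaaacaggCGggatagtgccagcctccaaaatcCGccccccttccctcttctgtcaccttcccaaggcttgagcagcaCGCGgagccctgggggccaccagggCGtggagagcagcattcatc

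The enzymes, partners and receptors of collagen were described from a list of 43 genes, of which 42 were in the annotation. Bodies in a LAD numbered 4 in preadipocytes (9.52%), 2 in adipocytes (4.76%), 4 under Tmem120a knockdown (9.52%) and 5 under double knockdown (11.9%). All genes stood at 26.2%, 23.3%, 27.5% and 29.5% in these lists. A LAD in any list was met by 7 of the 42, against 36.3% of all genes. The prolyl and lysyl hydroxylases, the collagen chaperone Serpinh1, the fibril-binding proteoglycans Dcn, Lum, Fmod and Bgn, and the receptors Ddr1, Ddr2, Itga1, Itga11 and Itgb1 were in no LAD.

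Glt25d2, which encodes a collagen galactosyltransferase, was the 1 biosynthesis gene in a LAD, at 81.3% of the body in preadipocytes, 0% in adipocytes, 64.8% under Tmem120a knockdown and 43.3% under double knockdown. Its start was in a LAD in preadipocytes and the Tmem120a knockdown, and 90.2 kb of it was deposited as released. Tll1, a procollagen C-proteinase of the Bmp1 family, showed the opposite course, with 0% in preadipocytes, 80.9% in adipocytes, 72.4% under Tmem120a knockdown and 50.4% under double knockdown, and 155 kb of it was recruited. Tll2, its relative, was at 20.9% and the N-proteinase gene Adamts2 at 8.87% in preadipocytes, and both were at 0% in the other lists. Adamts3, also an N-proteinase gene, was at 100% in every list. In the knockdowns the lysyl oxidase gene Lox, which starts the crosslinks, was at 0% and 19.6%, and the integrin gene Itga2 at 22.4% and 25.8%, with both at 0% in preadipocytes and adipocytes. Values above those of adipocytes were thus seen in both knockdowns for Glt25d2 and Itga2 and in the double knockdown for Lox, and values below them in both for Tll1.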

How the data were processed

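LaminB1-DamID libraries, 1 LaminB1-Dam and 1 Dam library for each of 4 conditions, were the source of the deposited files. Per the labels and the study's methods, the authors mapped reads to mm9 (BWA and limma are named in the submitters' processing notes), took log ratios of LaminB1-Dam to Dam per DpnI fragment and called LADs with DNAcopy. The deposited files hold positions only: 4 lists of LADs and 2 lists of differential regions. Their depth is unknown. Lists were tied to conditions by the abbreviations they carry, and this tie rests on no value. The study's methods describe the differential regions as differing LADs, found as in earlier work, and state no length or score limit for them. All 3829 deposited regions were whole pieces of the subtraction of the preadipocyte and adipocyte lists.

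Gene bodies and starts came from GENCODE vM1 on NCBIM37, the assembly of mm9. A body counted as in a LAD on any overlap, a start when its base lay in one. File positions were read as counting from 0 and are printed counting from 1; between 96.5% and 98.8% of LAD borders then fell on GATC. Overlaps were computed with numpy 2.4.6 in Python 3.11.15, plots with matplotlib 3.10.9, and the code was tested on simulated intervals (0 wrong of 4000 overlap queries). Comparison shares are those of all 22367 protein-coding genes unless a subset, such as a length class, is named. Other percentages beside collagen counts are of the collagens counted. For bodies and starts that differed between a knockdown and adipocytes, the bracketed percentages are those of all genes. Members whose state differed between lists or that met a differential region were named, as were some others, such as Col25a1, Col1a1 and Col6a3. Classes followed the structure of the encoded chain. The members, classes and pathway list were chosen with earlier results of these data known. Alternatives tried were 10% or 50% of the body, LADs of at least 100 kb, closing of gaps under 50 kb, the longest coding transcript, any coding start, a 25 kb window around the start, and all pieces of the subtraction in place of the deposited regions.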

Additional observations from a re-analysis of the deposited data

Results flagged for a closer look

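Col6a6 moved in opposite directions from the adipocyte list in the knockdowns. The share of its body in a LAD was higher by 14.8 percentage points under Tmem120a knockdown and differed by -18.8 points in the double knockdown, where no LAD met the gene. Each value comes from 1 list of each condition, and the difference between them was not tested. Both use the same adipocyte list. The values rest on LADs of 26.0 kb in adipocytes and 60.3 kb under Tmem120a knockdown, and Col6a6 was no longer a loss under double knockdown when LADs under 100 kb were left out or 50% of the body was required.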

How the results depend on the processing

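No paired analysis was possible because each condition had 1 library of each kind and no result came from a test. Of 80 recomputed values for 18 counts, 57 stayed within 1.5 times the reported count and 23 did not. Many of the latter came with LADs of at least 100 kb, where starts in a LAD numbered 4 in preadipocytes, 2 under Tmem120a knockdown and 2 under double knockdown, and bodies 5 in adipocytes, 5 under Tmem120a knockdown and 4 under double knockdown. Bodies in adipocyte LADs alone were then 0, and starts 1 (Col11a1). Bodies gained or lost against adipocytes were 0 and 0 under Tmem120a knockdown, and 0 were gained under double knockdown, where the 1 body lost was Col9a1 in place of Col6a6. The gains at Col13a1, Col23a1 and the Col6 row thus rest on LADs under 100 kb. With at least 50% of the body required, bodies numbered 5 in adipocytes, 6 under Tmem120a knockdown and 5 under double knockdown. At this setting 1 was in preadipocytes and not adipocytes (Col4a3) and 1 in adipocytes and not preadipocytes (Col22a1). Then 1 was gained (Col4a4) and 0 lost under Tmem120a knockdown, and 2 were gained (Col4a4 and Col6a4) and 2 lost (Col9a1 and Col11a1) in the double knockdown. At 10% of the body, 3 were gained in the double knockdown. With gaps under 50 kb closed, 1 start was in adipocyte LADs alone (Col6a5). With all pieces of the subtraction, 2 bodies met a released stretch (Col4a4 and Col4a3). Counts of bodies and starts over several lists were recomputed in the same way after the data had been seen. Starts in a LAD of every list numbered 4 as reported, 2 with LADs of at least 100 kb (Col22a1 and Col25a1) and 6 with gaps closed (Col9a1 and Col19a1 added). The transcript and window settings moved no count by over 1.5 times, though any coding start added Col13a1 and Col4a5 to the starts under Tmem120a knockdown.

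With neither replicates nor depth in the lists, no error can be given for a border or for the short LADs met in 1 list alone, such as those at Col4a5, Col4a6, Col9a2 and Col28a1.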
